A study of Mus musculus with 48 samples.

Results

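The daily time course of the conventional female liver rests on 12 of the 48 libraries of the series, namely every library of a conventionally raised (convR) female, whose column names carry CTR and end in _F. Total RNA-seq was made from livers of C57BL/6j mice aged 15 to 16 weeks with a normal gut microbiome, fed ad libitum, and 2 libraries were read at each of ZT2, ZT6, ZT10, ZT14, ZT18 and ZT22, where zeitgeber time (ZT) counts hours from lights on. The other groups used here, for comparison only, were germ-free (GF) females, which lack a gut microbiome, and convR males, each with 12 libraries of the same strain, age, feeding and sampling times. ZT2, ZT6 and ZT10 (6 libraries) were taken as the light phase, and ZT14, ZT18 and ZT22 (6 libraries) as the dark phase, since the light schedule is not given in the sources used here. The labels do not say that replicates were separate animals, so p-values measure the spread between libraries, and every value covers a single cycle. The question the design poses is which transcripts follow the time of day in a female liver with its microbiome.

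The mammalian clock is a transcriptional feedback loop. ARNTL (BMAL1), with CLOCK or its relative NPAS2, binds E-boxes and drives the Per and Cry genes, whose proteins return to the nucleus and inhibit their own activators. A second loop runs through the nuclear receptors NR1D1 and NR1D2 (REV-ERB alpha and beta), which repress Arntl, and the ROR receptors, which activate it, while the D-box factors DBP, TEF and HLF and their competitor NFIL3 carry the rhythm to further genes. In the liver this machinery, together with feeding, times the synthesis of cholesterol, glycogen, bile acids and detoxifying enzymes.

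The 250 bases before the start site of 6 clock genes are shown because the rhythms described below include these genes and their windows hold a letter match to an element of the loop. They are the 6 of largest amplitude among the rhythmic clock genes with such a match. Of 28 clock genes 22 were found in the RefSeq windows, and 9 of these held a match (assembly GRCm38.p6, the build of mm10). The capitals mark the E-box CACGTG, except in Per3, where they mark the D-box TTATGTAA.
Ciart (chr3:95882229-95882478, minus strand): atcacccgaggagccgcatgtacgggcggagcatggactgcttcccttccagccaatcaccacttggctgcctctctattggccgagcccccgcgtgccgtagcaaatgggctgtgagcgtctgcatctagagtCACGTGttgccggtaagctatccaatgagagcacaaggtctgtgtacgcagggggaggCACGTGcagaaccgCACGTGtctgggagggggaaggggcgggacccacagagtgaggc
Bhlhe41 (chr6:145865421-145865670, minus strand): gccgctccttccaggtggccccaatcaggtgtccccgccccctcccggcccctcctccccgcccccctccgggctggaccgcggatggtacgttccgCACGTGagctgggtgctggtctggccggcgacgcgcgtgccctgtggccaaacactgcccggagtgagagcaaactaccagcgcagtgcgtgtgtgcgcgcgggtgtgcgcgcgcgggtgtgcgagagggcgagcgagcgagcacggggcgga
Per3 (chr4:151044666-151044915, minus strand): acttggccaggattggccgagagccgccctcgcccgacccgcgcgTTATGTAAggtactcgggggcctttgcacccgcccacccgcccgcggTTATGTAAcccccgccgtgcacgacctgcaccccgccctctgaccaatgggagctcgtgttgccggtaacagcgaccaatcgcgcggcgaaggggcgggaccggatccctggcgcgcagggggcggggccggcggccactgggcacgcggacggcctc
Per1 (chr11:69098699-69098948, plus strand): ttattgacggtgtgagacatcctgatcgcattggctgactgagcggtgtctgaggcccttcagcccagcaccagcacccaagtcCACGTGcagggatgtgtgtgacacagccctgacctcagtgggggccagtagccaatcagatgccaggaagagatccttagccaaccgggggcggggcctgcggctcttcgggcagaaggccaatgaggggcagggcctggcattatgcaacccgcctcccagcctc
Tef (chr15:81802423-81802672, plus strand): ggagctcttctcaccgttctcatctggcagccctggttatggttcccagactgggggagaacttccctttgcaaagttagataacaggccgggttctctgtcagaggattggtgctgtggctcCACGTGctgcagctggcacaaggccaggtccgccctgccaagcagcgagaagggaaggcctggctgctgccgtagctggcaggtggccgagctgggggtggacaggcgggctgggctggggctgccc
Cry1 (chr10:85185055-85185304, minus strand): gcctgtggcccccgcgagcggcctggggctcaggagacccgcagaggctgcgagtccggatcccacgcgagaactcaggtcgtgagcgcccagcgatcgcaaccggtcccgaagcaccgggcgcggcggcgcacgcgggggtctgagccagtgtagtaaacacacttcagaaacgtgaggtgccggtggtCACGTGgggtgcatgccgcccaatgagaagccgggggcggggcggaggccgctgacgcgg
Each line reads 5′ to 3′ on the strand of its gene and ends 1 base before the start site. Per1 and Tef have 2 start sites each in RefSeq, and 1 window with a match is shown for each. That of Per1 lies inside the gene interval given below. The first base of the E-box lay 116, 58 and 44 bases before the start in Ciart, 153 in Bhlhe41, 166 in Per1, 127 in Tef and 60 in Cry1, and the D-boxes of Per3 began 205 and 158 bases before its start. Of all 32851 RefSeq windows of this length, 6.02% held CACGTG, 0.932% held TTATGTAA or TTACGTAA, and 5.38% held the ROR element (TAGGTCA or TGGGTCA), searched on both strands. A match is a run of letters and not a measured binding site.

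The 12 libraries held between 35575672 and 41536942 counts in genes. The 2 libraries of ZT6 differed more than any other pair. Of 10363 genes with an average log2 CPM of at least 2, 183 differed 2-fold or more between them, against 17 to 75 in the other 5 pairs, and their correlation over genes was 0.984, against 0.990 to 0.993. Hepatocyte markers summed to 126086 to 140486 CPM (read counts scaled to equal library totals) in the light and 139919 to 145580 CPM in the dark. The median log2 difference of these 10 genes, dark minus light, was 0.11, against -0.0031 over all genes. None of them or of 12 Kupffer cell markers was called in any test. The part of hepatocyte content in the results below was not tested. The 10 pancreas acinar markers summed to 4.09 to 7.88 CPM, with Cela3b and Amy2b at 0 in all 12 libraries, and 8 skeletal muscle markers summed to at most 0.694 CPM. In these bulk samples fewer cells of a type and less RNA per cell cannot be told apart.

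The core clock oscillated through most of its members. A wave of 24 h period was called in 15 of 18 core clock genes and in 9 of 10 clock output transcription factors, against 18.9% of all 16180 genes tested, by edgeR's quasi-likelihood test at an adjusted p under 0.05. Leaving out each library in turn gave 13 to 15 and 6 to 8 calls. Amplitudes below are log2 distances from the middle of the fitted wave to its crest, and peaks are in ZT hours, each with its SE over the 12 libraries.

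The activators peaked around the change from dark to light. Arntl (chr7:113207465-113314126, plus strand), which encodes the partner shared by CLOCK and NPAS2, read 41.6 and 38.1 CPM at ZT2, 6.58 and 9.84 at ZT6, 1.13 and 1.33 at ZT10, 5.56 and 2.31 at ZT14, 23.4 and 25.6 at ZT18 and 43.5 and 35.8 at ZT22. Both libraries of ZT10 were the lowest. Those of ZT2 and ZT22, which overlapped each other, lay above all others. The fitted amplitude was 2.42 ± 0.21 and the peak 22.8 ± 0.313 h (adjusted p = 8.69e-05), a 28.7-fold range. Npas2 (chr1:39193731-39363236, plus strand), the alternative partner of ARNTL, read 11.4 and 8.96 CPM at ZT2, 0.951 and 1.07 at ZT6, 0.0735 and 0.136 at ZT10, 0.0510 and 0.106 at ZT14, 0.449 and 0.516 at ZT18 and 9.59 and 10.3 at ZT22. Its RNA was at most 0.136 CPM in the 4 libraries of ZT10 and ZT14 and at least 8.96 CPM in those of ZT22 and ZT2. The amplitude was 4.13 ± 0.18. With a peak at 0.296 ± 0.119 h, Npas2 had the lowest adjusted p of all genes (1.86e-08). Clock itself ran in a narrower band, from 27.4 and 28.8 CPM at ZT10 to 92.5 and 96.9 at ZT22, with an amplitude of 0.83 ± 0.08 and a peak at 22.9 ± 0.379 h (adjusted p = 0.000186).

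The Per genes, the inhibitors of the activators, crested around dusk, in the order Per3, Per1 and Per2. Per3 (chr4:151003652-151044665, minus strand) read 5.55 and 4.86 CPM at ZT2, 44.6 and 68.8 at ZT6, 136 and 108 at ZT10, 51.9 and 60.4 at ZT14, 46.2 and 39.5 at ZT18 and 10.5 and 7.97 at ZT22. Per1 (chr11:69095217-69109960, plus strand) read 2.63 and 3.95 CPM at ZT2, 6.63 and 8.38 at ZT6, 30.2 and 28.0 at ZT10, 25.7 and 34.8 at ZT14, 13.3 and 12.9 at ZT18 and 9.22 and 4.64 at ZT22. Per2 (chr1:91415982-91459324, minus strand) read 10.8 and 12.9 CPM at ZT2, 17.1 and 23.1 at ZT6, 66.1 and 46.8 at ZT10, 62.9 and 68.3 at ZT14, 77.6 and 42.2 at ZT18 and 20.8 and 36.3 at ZT22. All 3 genes were lowest in the libraries of ZT2. Per3 was highest at ZT10, Per1 at ZT10 and ZT14, and the Per2 libraries of ZT10, ZT14 and ZT18 overlapped. Fitted peaks were 11.6 ± 0.467 h for Per3, 13.1 ± 0.343 h for Per1 and 14.5 ± 0.413 h for Per2, with amplitudes of 2.04 ± 0.25, 1.60 ± 0.15 and 1.28 ± 0.14 (adjusted p = 0.00146, 8.36e-05 and 0.000378). Differences between the peaks of the 3 genes were not tested.

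Cry1 (chr10:85131700-85185064, minus strand), the partner of the PER proteins that acts late in the cycle, was higher in the dark phase. It read 25.3 and 25.1 CPM at ZT2, 10.9 and 4.93 at ZT6, 12.5 and 9.07 at ZT10, 33.4 and 26.6 at ZT14, 39.9 and 43.2 at ZT18 and 63.2 and 45.6 at ZT22. The lowest dark library (26.6 CPM) lay above the highest light library (25.3 CPM). The fitted peak was 19.6 ± 0.407 h with an amplitude of 1.38 ± 0.15 (adjusted p = 0.000356), and the mean of the dark times exceeded that of the light times by 1.71 ± 0.17 on the log2 scale (adjusted p = 0.000507). Cry2 had a shallow wave of amplitude 0.48 ± 0.11 with a peak at 12.1 ± 0.851 h (adjusted p = 0.0263). Its call was lost without either library of ZT2, without replicate 2 of ZT10 or without replicate 2 of ZT22. Over all 12 fits without 1 library the amplitude ran from 0.40 to 0.53. Ciart (CHRONO, listed as Gm129 in the files), a repressor of ARNTL and CLOCK, read 0.205 and 0.241 CPM at ZT2, 2.75 and 4.07 at ZT6, 19.9 and 26.4 at ZT10, 8.38 and 12.1 at ZT14, 6.07 and 3.29 at ZT18 and 0.253 and 0.267 at ZT22. It was at or below 0.267 CPM in all 4 libraries of ZT2 and ZT22 and highest at ZT10. Its amplitude of 3.17 ± 0.30 corresponded to an 80.7-fold range with a peak at 12.0 ± 0.311 h (adjusted p = 8.36e-05).

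The repressing nuclear receptors of the second loop had their fitted peaks in the light phase. Nr1d1 (chr11:98767932-98775333, minus strand) read 5.37 and 5.27 CPM at ZT2, 38.3 and 56.1 at ZT6, 18.4 and 38.9 at ZT10, 6.24 and 10.9 at ZT14, 1.45 and 2.39 at ZT18 and 1.52 and 0.292 at ZT22. It was highest at ZT6 and ZT10 and lowest at ZT18 and ZT22, where the replicates of ZT22 differed from 1.52 to 0.292 CPM. The amplitude was 2.80 ± 0.26, the peak 8.32 ± 0.322 h (adjusted p = 7.92e-05), and the dark mean lay below the light mean by a log2 difference of -2.94 ± 0.31 (adjusted p = 0.000522). Nr1d2, its paralogue, rose from 25.3 and 25.7 CPM at ZT2 to 167 and 191 at ZT10 and was at 17.4 and 14.1 at ZT22, with an amplitude of 1.83 ± 0.14 and a peak at 10.5 ± 0.3002 h (adjusted p = 6.75e-05). For Rora, which encodes one of the opposing ROR receptors, no wave was called (amplitude 0.06 ± 0.07, adjusted p = 0.804), and its libraries read 123 to 167 CPM in the light and 104 to 159 CPM in the dark.

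The remaining core members ranged from a deep wave in Bhlhe41 to none in the casein kinase genes. Bhlhe41 (DEC2), a repressor that competes at E-boxes, read 0.281 and 0.169 CPM at ZT2, 0.720 and 2.06 at ZT6, 2.28 and 5.84 at ZT10, 0.688 and 0.531 at ZT14, 0.528 and 0.489 at ZT18 and 0.112 and 0.292 at ZT22, with an amplitude of 2.08 ± 0.36 and a peak at 9.92 ± 0.599 h (adjusted p = 0.00235). Its highest reading, in replicate 2 of ZT10, was over 2 times that of the other library of that time. Bhlhe40 (DEC1) peaked at 12.2 ± 0.694 h with an amplitude of 0.56 ± 0.10 (adjusted p = 0.00717). No wave was called for the kinase genes Csnk1d and Csnk1e, which phosphorylate PER proteins (amplitudes 0.12 ± 0.04 and 0.04 ± 0.06, adjusted p = 0.107 and 0.853).

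**Figure D1:**
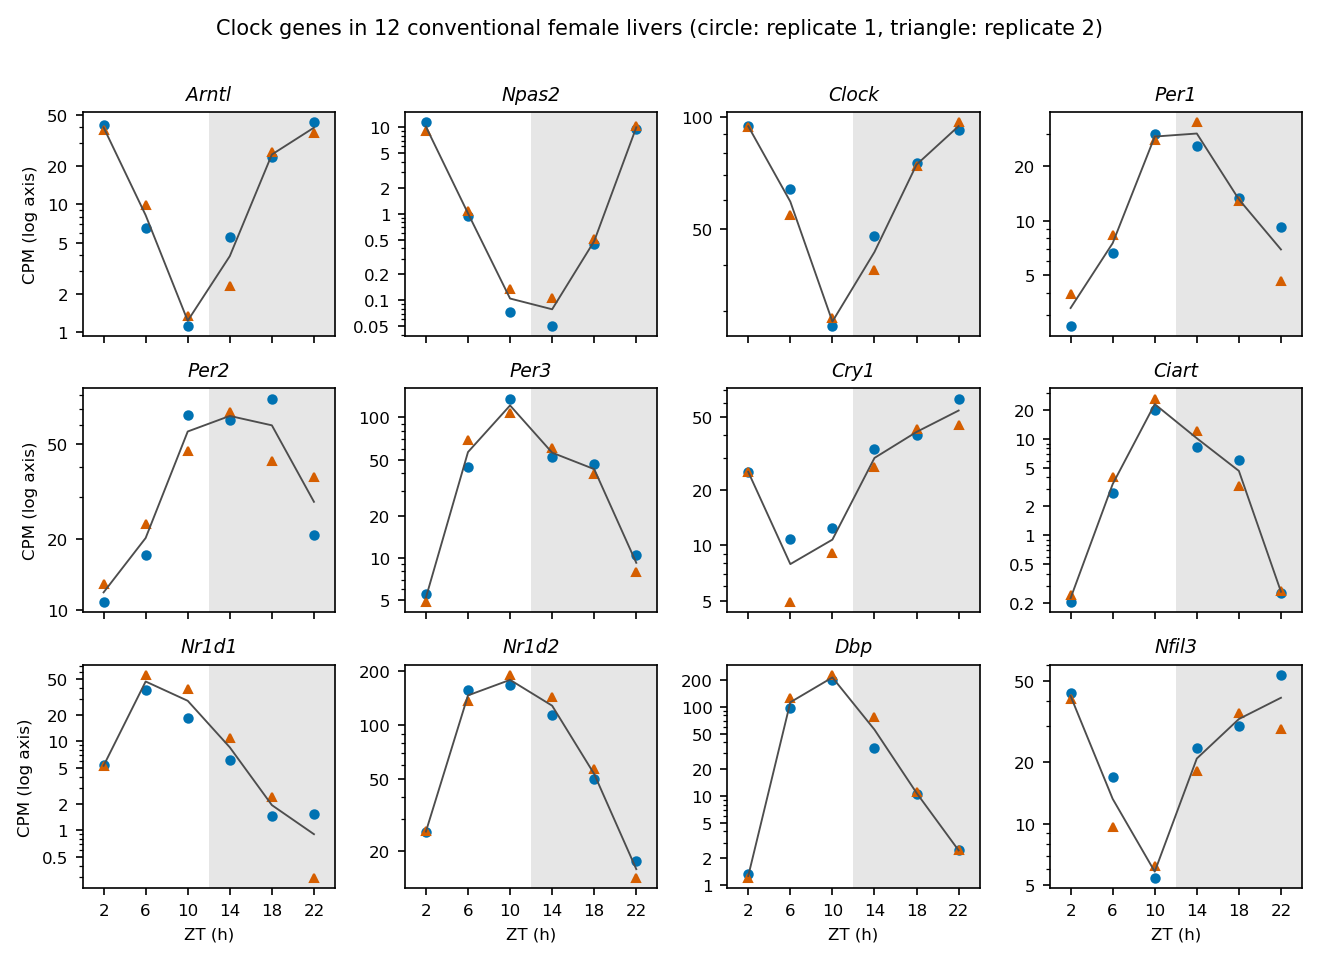
Depth-scaled counts (CPM, log axis) of 12 clock genes against zeitgeber time in the 12 conventional female livers, where each marker is 1 library, the line joins the means of the 2 replicates and the grey area is the dark phase. Arntl, Npas2 and Clock are lowest at ZT10 or ZT14, Per3, Ciart, Nr1d2 and Dbp are highest at ZT10, and Cry1 and Nfil3 rise through the dark phase.

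Dbp had the largest amplitude of the output factors, and the other D-box factors had smaller ones. Dbp (chr7:45705088-45710203, plus strand) read 1.33 and 1.20 CPM at ZT2, 97.9 and 127 at ZT6, 198 and 228 at ZT10, 34.9 and 75.8 at ZT14, 10.5 and 11.1 at ZT18 and 2.45 and 2.45 at ZT22. Both ZT10 libraries were the highest and both ZT2 libraries the lowest. The amplitude of 3.50 ± 0.36 gave a 129-fold range with a peak at 10.2 ± 0.365 h (adjusted p = 0.000287). Tef followed at 11.9 ± 0.386 h with an amplitude of 1.44 ± 0.15, and Hlf at 14.4 ± 0.429 h with 0.44 ± 0.05 (adjusted p = 0.000287 and 0.000323). Nfil3, the repressor that competes for the same sites, ran in the opposite direction. It read 43.6 and 40.9 CPM at ZT2, 16.9 and 9.63 at ZT6, 5.44 and 6.24 at ZT10, 23.5 and 18.2 at ZT14, 30.3 and 34.9 at ZT18 and 53.6 and 29.2 at ZT22, with its minimum at ZT10, where Dbp was highest. Its peak was 21.6 ± 0.564 h and its amplitude 1.27 ± 0.19 (adjusted p = 0.00338).

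Among the other output factors, Klf10, a zinc finger repressor, peaked at 10.8 ± 0.415 h with an amplitude of 1.06 ± 0.12 (adjusted p = 0.00023). Ppard, the fatty acid receptor PPAR delta, was at 17.4 and 14.4 CPM at ZT2 and at 2.57 and 3.42 CPM at ZT6, with an amplitude of 1.48 ± 0.16 and a peak at 23.3 ± 0.405 h (adjusted p = 0.000184). Both of its ZT2 and both of its ZT22 libraries lay above all others. The waves of Klf15, E2f8 and Nr0b2 (SHP) were close to the threshold (adjusted p = 0.0402, 0.0475 and 0.0499) and were called in 4, 4 and 2 of the 12 fits without 1 library, with amplitudes of 0.26 to 0.38, 0.82 to 1.11 and 0.79 to 1.05. For Klf9 no wave was called (amplitude 0.39 ± 0.16, adjusted p = 0.205).

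Genome-wide, 3056 of 16180 genes (18.9%) followed a 24 h wave, with a median amplitude of 0.34, and the amplitude was at least 0.5 in 880 of them and at least 1 in 213. Fitted peaks covered the whole day. The fullest bins of 4 h were ZT8 to ZT12 (643 genes) and ZT20 to ZT24 (571 genes), and the fewest genes fell between ZT0 and ZT4 (392 genes). Without replicate 1 of ZT6 the count was 3730, and over all 12 such fits it ran from 2148 (without replicate 2 of ZT10) to 3730.

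**Figure D2:**
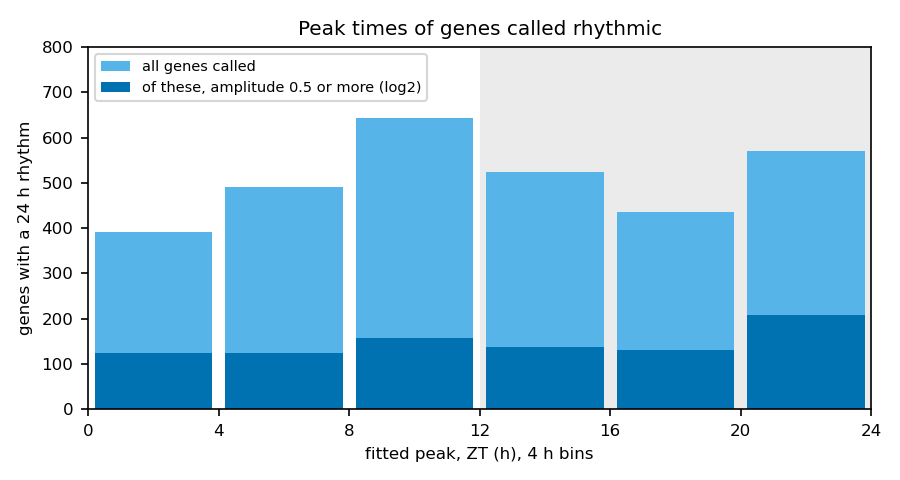
Number of genes with a called 24 h rhythm by fitted peak in bins of 4 h (light bars), and the part of them with a log2 amplitude of 0.5 or more (dark bars), with the dark phase in grey. The bin from ZT8 to ZT12 holds 643 genes and that from ZT0 to ZT4 holds 392.

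Beyond the clock, the genes of largest amplitude held regulators of signalling, transport and matrix. Dmbt1, a secreted scavenger receptor, had the largest fitted amplitude, but its reading was 98.7 CPM in replicate 2 of ZT22 and at most 3.29 CPM in the other 11 libraries. Its amplitude was 4.90 ± 1.47 with all libraries and 2.85 without that one, and the call was lost without replicate 1 of ZT10. Rgs16, an inhibitor of G protein signalling, read 3.84 and 6.19 CPM at ZT2, 34.1 and 72.9 at ZT6, 104 and 117 at ZT10, 32.5 and 37.8 at ZT14, 4.28 and 11.5 at ZT18 and 3.99 and 0.850 at ZT22. Its peak at 10 ± 0.320 h and amplitude of 2.77 ± 0.24 (adjusted p = 7.92e-05) placed its crest at the same sampled time as that of Dbp. Usp2, a deubiquitinating enzyme, read 3.45 and 3.49 CPM at ZT2, 13.2 and 9.76 at ZT6, 49.7 and 52.9 at ZT10, 37.4 and 55.5 at ZT14, 25.6 and 22.9 at ZT18 and 7.20 and 7.07 at ZT22, with a peak at 13.0 ± 0.217 h and an amplitude of 1.98 ± 0.11 (adjusted p = 3.92e-06). The lowest reading at ZT10 and ZT14 was 37.4 CPM, and the highest at ZT2 and ZT22 was 7.20 CPM.

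Slc34a2, a phosphate transporter, and Loxl4, a matrix cross-linking enzyme, peaked late in the dark phase. Loxl4 read 18.3 and 16.5 CPM at ZT2, 5.60 and 4.20 at ZT6, 1.96 and 2.42 at ZT10, 1.73 and 1.91 at ZT14, 5.23 and 4.29 at ZT18 and 22.8 and 38.6 at ZT22, with an amplitude of 2.08 ± 0.17 and a peak at 23.7 ± 0.294 h (adjusted p = 2.45e-05). Its libraries of ZT22 and ZT2 lay above all others. Slc34a2 peaked at 22.8 ± 0.5998 h with an amplitude of 2.09 ± 0.34 (adjusted p = 0.00306), and its ZT22 replicates differed, at 12.1 and 40.8 CPM. Chrna4, a subunit of nicotinic acetylcholine receptors, had its peak in the light, at 5.49 ± 0.479 h, with an amplitude of 2.11 ± 0.28 (adjusted p = 0.000665).

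The genes of lowest adjusted p included several metabolic enzymes. Chka, the choline kinase that opens phosphatidylcholine synthesis, read 114 and 114 CPM at ZT2, 38.8 and 37.7 at ZT6, 13.8 and 14.4 at ZT10, 23.0 and 22.4 at ZT14, 77.1 and 65.1 at ZT18 and 123 and 125 at ZT22. It fell from about ZT2 to ZT10 and climbed through the dark, with no overlap between the libraries of ZT10 and those of ZT18, ZT22 or ZT2. Its amplitude was 1.62 ± 0.07 and its peak 22.9 ± 0.155 h (adjusted p = 1.96e-07). Clpx, a mitochondrial protein unfoldase, Slc30a10, a manganese exporter, and the galectin-like gene Lgalsl peaked in the same part of the day, at 23.0 ± 0.202 h, 23.2 ± 0.243 h and 22.5 ± 0.240 h, with amplitudes of 1.25 ± 0.07, 1.20 ± 0.08 and 1.31 ± 0.08. Clpx read 67.2 and 61.5 CPM at ZT10 and 366 and 397 CPM at ZT22.

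Another set crested from the end of the light to the early dark. Upp2, a liver uridine phosphorylase, read 209 and 204 CPM at ZT2, 518 and 532 at ZT6, 928 and 837 at ZT10, 453 and 585 at ZT14, 315 and 288 at ZT18 and 128 and 133 at ZT22 and peaked at 10.6 ± 0.212 h with an amplitude of 1.29 ± 0.07 (adjusted p = 3.05e-06). Both of its ZT10 libraries lay above all others. Nrg4, a growth factor secreted by fat and liver, Bnip3, a mitophagy receptor, and the transcription factor Klf13 peaked at 12.2 ± 0.253 h, 12.7 ± 0.238 h and 12.8 ± 0.227 h, with amplitudes of 1.62 ± 0.11, 0.69 ± 0.04 and 0.81 ± 0.05. Tspan4, a tetraspanin membrane protein, came last at 15.8 ± 0.205 h, with 30.2 and 31.1 CPM at ZT2 and 75.3 and 80.2 CPM at ZT14 (amplitude 0.79 ± 0.04, adjusted p = 1.88e-06).

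The dark and light phases differed in 2391 genes, of which 1202 (7.43% of all genes tested) were higher and 1189 (7.35%) lower in the dark. With library size as the only scaling the split was 867 higher and 1662 lower, and the median log2 difference over all genes went from -0.0031 to -0.0457. Calls numbered 1634 in both this contrast and the 24 h rhythm, which is 68.3% of the genes that differed by phase and 53.5% of those with a rhythm. In 438 of the 2391 genes no light library overlapped a dark one. These genes were selected by the same contrast, and the share without overlap over all genes tested was not counted. Single libraries moved the count of 2391. Without replicate 1 of ZT6 3731 genes were called, while 1140 were called without replicate 2 of ZT2, 1296 without replicate 1 of ZT2, 1409 without replicate 2 of ZT18, 1422 without replicate 1 of ZT14 and 1521 without replicate 1 of ZT22. A model of only 2 groups, which leaves the rhythm within each phase in the spread, called 549.

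Genes higher in the dark by the largest log2 differences included secreted, stress and glucose-producing factors. Tsku (tsukushi), a secreted hepatokine, read 74.7 and 62.7 CPM at ZT2, 10.2 and 8.90 at ZT6, 99.7 and 71.8 at ZT10, 219 and 229 at ZT14, 227 and 176 at ZT18 and 51.5 and 124 at ZT22. It was lowest in both ZT6 libraries and highest at ZT14 and ZT18, and replicate 1 of ZT22 fell below 4 of the light libraries. The dark mean lay above the light mean by 2.08 ± 0.18 (adjusted p = 0.000263). Eif4ebp3, an inhibitor of translation initiation, ran from 3.80 to 20.7 CPM in the light and 13.0 to 38.9 CPM in the dark, a difference of 1.86 ± 0.29 (adjusted p = 0.00309). G6pc, the enzyme that releases free glucose, read 241 and 167 CPM at ZT2, 141 and 41.2 at ZT6, 184 and 54.2 at ZT10, 359 and 394 at ZT14, 261 and 369 at ZT18 and 427 and 306 at ZT22. Every dark library of G6pc lay above every light library, by 1.48 ± 0.33 (adjusted p = 0.0157), although the call was lost without replicate 2 of ZT2 and the difference ran from 1.27 to 1.86 as each library was left out. The small heat shock protein gene Hspb1 differed by 1.51 ± 0.19 (adjusted p = 0.00121), and both of its ZT18 libraries (44.1 and 38.1 CPM) were above all others. Tnnc1, a troponin gene of low level, ran from 0.0771 to 0.662 CPM in the light and 0.729 to 3.27 CPM in the dark (1.79 ± 0.24, adjusted p = 0.00146).

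The other 4 named genes of this group rested on few libraries or on gene families whose reads are uncertain. Dmbt1 differed by 5.89 ± 1.59 (adjusted p = 0.0325), and the call was kept in 3 of the 12 fits without 1 library. Without replicate 2 of ZT22 the difference was 3.73 and without replicate 2 of ZT18 it was 2.95, neither of them called. Serpina9 (2.35 ± 0.67, adjusted p = 0.0395) was kept in 3 of 12 and ran from 1.497 to 2.90, with the lowest value without replicate 2 of ZT18. Serpina1e, an alpha-1-antitrypsin gene, and Mup11, a major urinary protein gene, belong to clusters of near-identical copies, and how reads were shared among copies is not given in the sources used here. They differed by 1.68 ± 0.45 and 1.57 ± 0.40 (adjusted p = 0.0329 and 0.0265), each kept in 6 of 12 fits, with ranges of 1.41 to 2.11 and 0.88 to 1.86. The lowest value of Mup11 was the one without replicate 1 of ZT14.

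Genes lower in the dark held a receptor subunit, a clock repressor and enzymes of acetyl-CoA and cholesterol supply. Chrna4 read 17.9 and 16.5 CPM at ZT2, 13.8 and 56.9 at ZT6, 15.7 and 9.04 at ZT10, 1.71 and 1.81 at ZT14, 3.70 and 1.82 at ZT18 and 2.02 and 3.67 at ZT22. The lowest light library (9.04 CPM) lay above the highest dark one (3.70 CPM), with a log2 difference of -2.99 ± 0.35 (adjusted p = 0.000897). Nfe2, a transcription factor best known from blood cells, and Acss2, which makes acetyl-CoA from acetate, did not overlap between phases either. Nfe2 read 2.48 to 9.42 CPM in the light and 0.382 to 1.93 CPM in the dark (-2.30 ± 0.23, adjusted p = 0.000507), and the sum of 8 erythroid markers ran from 47.9 to 177 CPM in the light and from 32.4 to 139 CPM in the dark, whose part in the result was not tested. Acss2 read 776 and 767 CPM at ZT2, 475 and 1046 at ZT6, 998 and 495 at ZT10, 240.4 and 216 at ZT14, 292 and 187 at ZT18 and 182 and 260.4 at ZT22, a difference of -1.69 ± 0.23 (adjusted p = 0.00155). Trib3, a pseudokinase that binds AKT, was high in the 4 libraries of ZT6 and ZT10 (11.1 and 15.1 and 8.21 and 14.8 CPM) and between 1.38 and 3.26 CPM in the others (-1.58 ± 0.20, adjusted p = 0.00127). Rgs16 and Nr1d1 differed by -1.79 ± 0.34 and -2.94 ± 0.31 (adjusted p = 0.00712 and 0.000522).

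Of the other named genes lower in the dark, Fabp5, a fatty acid binding protein, differed by -1.59 ± 0.36 (adjusted p = 0.0156), and the call was lost without replicate 2 of ZT18. Without replicate 2 of ZT6 its difference shrank to -1.06. Pls1, an actin bundling protein, differed by -1.55 ± 0.36 (adjusted p = 0.0175), a call lost without replicate 2 of ZT2 or of ZT18, with a range of -1.89 to -1.21. Sult2a3, one of several similar sulfotransferase genes, read 7.18 to 61.8 CPM in the light and 4.83 to 13.5 CPM in the dark. Its difference of -1.77 ± 0.42 (adjusted p = 0.0195) was kept in 6 of 12 fits and was -1.13 without replicate 1 of ZT6.

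**Figure D3:**
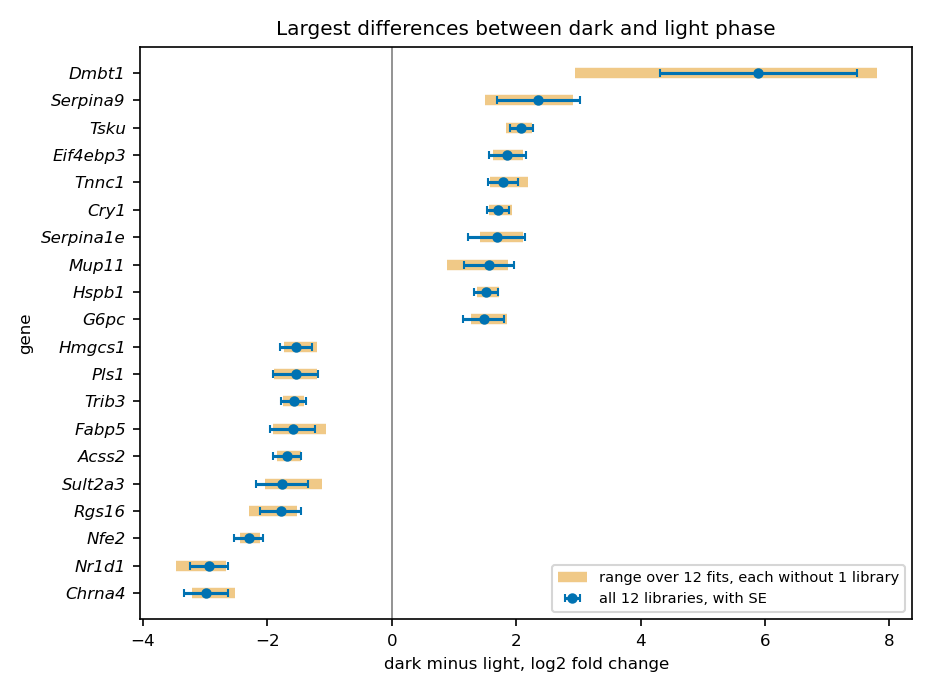
Log2 difference of the dark minus the light phase for the 10 highest and 10 lowest genes past the threshold, with SE (blue) and the range of the estimate when each of the 12 libraries was left out (band). The estimates of Dmbt1 span 2.95 to 7.80, and no band crosses 0.

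Cholesterol synthesis genes were higher in the light phase. Over all genes tested, 7.43% were higher and 7.35% lower in the dark, and 18.9% had a rhythm. The lists below are set beside these shares. Members and lists, those of the clock included, were chosen with earlier results of these data known. A count above these shares is therefore a description and not an independent test. Of 24 genes for the pathway and its control, 20 were lower in the dark and none higher, with a median log2 difference of -0.84 against -0.0031 over all genes, and 13 had a called rhythm, 9 of them with a peak between ZT4 and ZT8. Leaving out each library gave 16 to 23 genes lower in the dark and 9 to 17 with a rhythm, with the highest counts without replicate 1 of ZT6. Hmgcs1 (chr13:119690379-119708260, plus strand), which makes the HMG-CoA for the pathway, read 1124 and 1598 CPM at ZT2, 485 and 1454 at ZT6, 1173 and 773 at ZT10, 254 and 251 at ZT14, 404 and 272 at ZT18 and 415 and 702 at ZT22. Replicate 1 of ZT6 lay among the dark libraries, and every other light library lay above all 6 dark ones. The difference was -1.54 ± 0.26 (adjusted p = 0.00402), and the peak was 4.56 ± 0.676 h with an amplitude of 1.13 ± 0.20.

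Fdps and Fdft1, which build farnesyl diphosphate and squalene, Lss and Cyp51, which close and trim the sterol ring, and Nsdhl and Sc5d, which act later, had no overlap between phases. Sc5d read 1106 and 1159 CPM at ZT2, 976 and 1428 at ZT6, 1004 and 905 at ZT10, 494 and 530.4 at ZT14, 627 and 497 at ZT18 and 559 and 646 at ZT22, with a difference of -0.93 ± 0.10 (adjusted p = 0.00054). The differences were -1.28 ± 0.21 for Fdps, -1.03 ± 0.15 for Fdft1, -1.04 ± 0.17 for Lss, -0.83 ± 0.14 for Cyp51 and -0.96 ± 0.15 for Nsdhl (adjusted p = 0.00394, 0.00242, 0.00426, 0.00400 and 0.00329). The sterol carrier gene Stard4 did not overlap either (-0.42 ± 0.05, adjusted p = 0.00140).

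Lipogenesis leaned the same way with less certainty. Of 16 genes 7 were lower in the dark (median difference -0.42), none was higher (1 without replicate 1 of ZT10), and 8 had a rhythm. The count lower in the dark was 2 without replicate 1 of ZT2, ZT14 or ZT22 or replicate 2 of ZT18, and 4 without replicate 2 of ZT2, ZT6, ZT14 or ZT22. The rhythm count was 5 without replicate 2 of ZT18 or of ZT22. Beside the lipogenesis and cholesterol genes, 8 adipocyte markers summed to 1423 to 3076 CPM in the light and 985 to 1756 CPM in the dark. Of the 5 tested 1 was lower and none higher in the dark, while their median log2 difference was 0.81, opposite in direction to the sum. The part of these markers in the results was not tested. Gpam, the first enzyme of glycerolipid synthesis, read 379.8 and 413 CPM at ZT2, 412 and 578 at ZT6, 323 and 304 at ZT10, 199.8 and 225 at ZT14, 276 and 229 at ZT18 and 208 and 275 at ZT22. All of its light libraries lay above the dark ones, with a difference of -0.71 ± 0.10 (adjusted p = 0.00158), a call kept in all 12 fits without 1 library. Fasn, fatty acid synthase, read 3004 and 2589 CPM at ZT2, 1949 and 3361 at ZT6, 3417 and 2148 at ZT10, 1096 and 1104 at ZT14, 2771 and 1499.9 at ZT18 and 1116 and 1785 at ZT22. Replicate 1 of ZT18 was as high as the light libraries while both ZT14 libraries were the lowest. Its difference of -0.83 ± 0.20 (adjusted p = 0.0196) was called in 7 of 12 fits, but not without replicate 1 of ZT2, ZT10, ZT14 or ZT22 or replicate 2 of ZT18 (range -0.99 to -0.67). Elovl5, a fatty acid elongase, had an early peak at 2.85 ± 0.594 h, while Dgat2, which completes triglycerides, and the desaturase Fads2 peaked at 12.5 ± 0.523 h and 13.1 ± 0.626 h (adjusted p = 0.00261, 0.00131 and 0.00303).

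Fatty acid oxidation genes and targets of the receptor PPAR alpha, which answers to fatty acids, were higher in the dark in part. Of 25 genes 10 were higher in the dark (median 0.28), none lower, and 9 had a rhythm, all with a peak after ZT12. The dark count was 14 without replicate 1 of ZT6, and the rhythm count 5 without replicate 2 of ZT14. Plin5, a lipid droplet protein that couples to mitochondria, read 44.2 and 37.4 CPM at ZT2, 20.1 and 16.2 at ZT6, 23.7 and 17.4 at ZT10, 49.2 and 57.1 at ZT14, 73.2 and 60.9 at ZT18 and 56.5 and 66.1 at ZT22. All dark libraries exceeded all light ones, with a difference of 1.32 ± 0.09 (adjusted p = 0.000115). Slc25a20, the mitochondrial carnitine carrier, did the same, with 72.7 to 95.7 CPM in the light and 98.7 to 142 CPM in the dark (0.50 ± 0.05, adjusted p = 0.000626). Pdk4, a kinase that shuts off pyruvate use, followed a wave of amplitude 1.48 ± 0.13 with a peak at 22.8 ± 0.322 h (adjusted p = 6.54e-05). It ran from 3.43 and 3.69 CPM at ZT10 to 32.6 and 16.5 CPM at ZT22. The receptor gene Ppara and Cpt1a, the gate for fatty acids into mitochondria, peaked at 12.7 ± 0.606 h and 13.3 ± 0.569 h (adjusted p = 0.00305 and 0.00182). The core enzymes of beta-oxidation Acadm, Acadl, Acadvl, Hadha and Hadhb were not called in either test, and their differences ran from 0.04 (Hadhb) to 0.11 (Acadm).

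Glucose genes were rhythmic at different times of day. Of 15 genes 11 had a rhythm (8 to 11 as each library was left out), with 4 higher and 2 lower in the dark. Over all genes tested the shares were 18.9%, 7.43% and 7.35%. The count of lower genes was 1 without replicate 1 of ZT2, ZT10, ZT14 or ZT22 or replicate 2 of ZT2, ZT14 or ZT18. Gys2, liver glycogen synthase, read 100.5 and 92.5 CPM at ZT2, 141 and 116 at ZT6, 299 and 319 at ZT10, 253 and 284 at ZT14, 219.8 and 237 at ZT18 and 117 and 112 at ZT22. Both libraries of ZT10 were the highest and those of ZT2 and ZT22 were among the lowest, for a peak at 13.3 ± 0.285 h and an amplitude of 0.92 ± 0.07 (adjusted p = 2.45e-05). Ppp1r3c and Ppp1r3b, the subunits that direct a phosphatase to glycogen, crested from the late dark to lights on. Ppp1r3c read 164 and 183 CPM at ZT2, 96.1 and 95.3 at ZT6, 29.4 and 51.0 at ZT10, 25.6 and 14.1 at ZT14, 102 and 79.1 at ZT18 and 173 and 177 at ZT22, with a peak at 0.376 ± 0.412 h and an amplitude of 1.46 ± 0.16 (adjusted p = 0.0004), and Ppp1r3b peaked at 20.5 ± 0.643 h (adjusted p = 0.00696). Slc2a2, the hepatic glucose transporter GLUT2, peaked at 10.2 ± 0.349 h with an amplitude of 0.52 ± 0.05 (adjusted p = 7.92e-05).

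Pck1, which commits to glucose production, read 891 and 827 CPM at ZT2, 1369.9 and 390.3 at ZT6, 2098 and 1575 at ZT10, 3046 and 3713 at ZT14, 920.1 and 1576 at ZT18 and 1802 and 1107 at ZT22. Both ZT14 libraries were the highest and replicate 2 of ZT6 the lowest. Its wave (peak 14.5 ± 0.976 h, adjusted p = 0.0356) was called in 5 of 12 fits, not without either library of ZT2, ZT10 or ZT14 or replicate 2 of ZT22, with an amplitude of 0.75 to 0.997. Among 18 genes of insulin and fasting signals, 7 had a rhythm, 4 were higher and 2 lower in the dark. The shares of all genes tested were 18.9%, 7.43% and 7.35%. The count of higher genes was 2 without replicate 1 of ZT10 or ZT14 or replicate 2 of ZT2 or ZT18. Lpin1, a phosphatidate phosphatase, fell steeply within 4 h, with 479.5 and 471 CPM at ZT14 and 72.6 and 92.5 CPM at ZT18 (amplitude 1.51 ± 0.18, peak 12.1 ± 0.454 h, adjusted p = 0.000427). Cdkn1a (p21), an inhibitor of the cell cycle, ran from 0.490 and 0.869 CPM at ZT10 to 10.2 and 15.4 CPM at ZT22 (amplitude 1.92 ± 0.25, peak 22.1 ± 0.463 h, adjusted p = 0.000463).

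Rhythms were called in part of the genes of bile acid transport and synthesis. A rhythm was called in 10 of 15 transport and signalling genes and in 4 of 14 synthesis genes (28.6%), against 18.9% of all genes tested. Leaving out each library gave 7 to 11 and 3 to 5 calls. Of the transport and signalling genes 1 was higher and 6 were lower in the dark, and of the synthesis genes 3 were higher and 1 was lower. Over all genes tested these shares were 7.43% and 7.35%. The count of lower transport and signalling genes ran from 3 (without replicate 1 of ZT14) to 8. The difference between the lists was not tested. Abcb11 (chr2:69238282-69342616, minus strand), the bile salt export pump, read 1331 and 1263 CPM at ZT2, 1462 and 1207 at ZT6, 854 and 833 at ZT10, 482 and 716 at ZT14, 750.3 and 735 at ZT18 and 1073 and 997 at ZT22. It was highest at ZT2 and ZT6, with a peak at 3.05 ± 0.431 h and an amplitude of 0.56 ± 0.06 (adjusted p = 0.000356). Abcg5 and Abcg8, whose proteins pair to export sterols into bile, peaked at 10.6 ± 0.475 h and 8.89 ± 0.557 h, with amplitudes of 0.75 ± 0.09 and 0.84 ± 0.12 (adjusted p = 0.000534 and 0.00179). Nr1h4 (FXR), the bile acid receptor, peaked at 15.4 ± 0.667 h (adjusted p = 0.00528). Hsd3b7, which acts early in both synthesis routes, read 599.6 and 617 CPM at ZT2, 420.3 and 564 at ZT6, 297 and 363 at ZT10, 242 and 182 at ZT14, 281 and 324 at ZT18 and 474 and 529.5 at ZT22, with a peak at 2.11 ± 0.405 h and an amplitude of 0.69 ± 0.07 (adjusted p = 0.000252). Cyp7a1, which catalyses the slowest step of the classic route from cholesterol, read 500.1 and 461 CPM at ZT2, 164 and 337 at ZT6, 851 and 273 at ZT10, 478 and 302 at ZT14, 852 and 379.9 at ZT18 and 155 and 383 at ZT22. The replicates of ZT6, ZT10, ZT18 and ZT22 differed by more than 2-fold, and no wave was called (amplitude 0.31 ± 0.27, adjusted p = 0.669).

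A rhythm was called in part of the drug-metabolising genes. Of 25 targets of the xenobiotic receptors, 11 had one, 4 were higher and 3 lower in the dark. This compares with 18.9%, 7.43% and 7.35% of all genes tested. Of the 11, 6 peaked between ZT8 and ZT16. The count of higher genes was 9 without replicate 1 of ZT6, and that of lower genes 5 without replicate 2 of ZT14. Por, the electron donor of microsomal P450 enzymes, read 252 and 272 CPM at ZT2, 289.7 and 291 at ZT6, 727 and 631 at ZT10, 906 and 789.8 at ZT14, 501 and 476 at ZT18 and 279 and 258 at ZT22, with a peak at 13.3 ± 0.273 h and an amplitude of 0.95 ± 0.07 (adjusted p = 1.41e-05). Its 4 libraries of ZT10 and ZT14 were the highest. Cyp2a5, whose reads may be shared with a close paralogue, peaked at 12.4 ± 0.322 h with an amplitude of 1.09 ± 0.09 (adjusted p = 7.25e-05), and the receptor gene Nr1i3 (CAR) at 13.1 ± 0.540 h with 0.49 ± 0.07 (adjusted p = 0.00136). Gstm3, a glutathione transferase, was lower in every dark library (33.8 to 49.6 CPM) than in any light one (58.6 to 82.9 CPM), with a difference of -0.75 ± 0.06 (adjusted p = 0.000144).

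**Figure D4:**
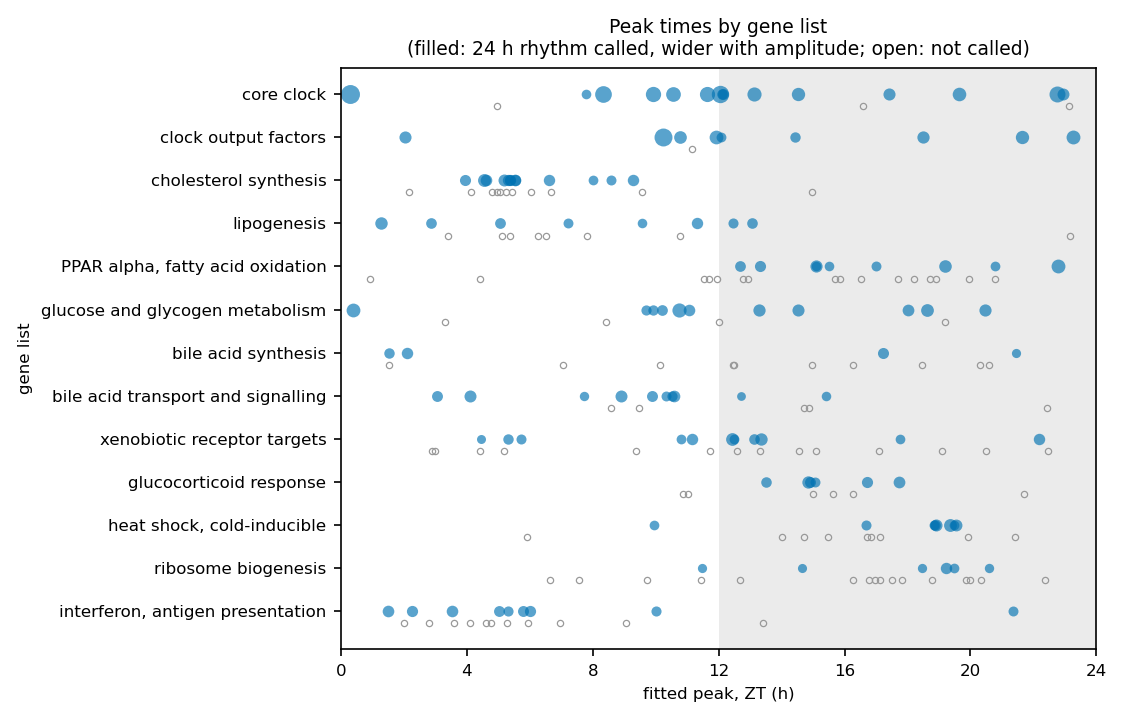
Fitted peak of every member of 13 gene lists in ZT hours, with the dark phase in grey, where filled points have a called 24 h rhythm and widen with amplitude and open points were not called. Called cholesterol synthesis genes lie in the light phase, and 7 of 8 called heat shock and cold-inducible genes lie between ZT16 and ZT20.

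Many chaperone genes were higher in the dark. Of 17 heat shock and cold-inducible genes, 9 were higher in the dark and 1 was lower (median 0.45), and 8 had a rhythm, 7 of them with a peak between ZT16 and ZT20. As each library was left out, 7 to 11 were higher in the dark, and the rhythm count was 5 without replicate 1 of ZT18 or replicate 2 of ZT6. Hsp90aa1 (chr12:110690605-110702728, minus strand), the inducible HSP90 chaperone, read 219.8 and 207 CPM at ZT2, 195 and 138 at ZT6, 96.3 and 70.6 at ZT10, 246 and 262 at ZT14, 439 and 414 at ZT18 and 231 and 251 at ZT22. Its ZT18 libraries were the highest, its ZT10 libraries the lowest, and every dark library lay above every light one. The dark mean was higher by 1.09 ± 0.09 (adjusted p = 0.000228), with a peak at 19.5 ± 0.771 h. Ahsa1, a co-chaperone of HSP90, did not overlap between phases either (0.46 ± 0.06, adjusted p = 0.00135). Hsph1 and Dnaja1, co-chaperones of HSP70, differed by 1.12 ± 0.13 and 0.44 ± 0.06 (adjusted p = 0.000897 and 0.00171). Rbm3, an RNA-binding protein induced by cold, peaked in the light, at 9.94 ± 0.684 h (adjusted p = 0.00590). Cirbp, the other cold-inducible gene, was highest in replicate 2 of ZT6 (24.8 CPM) and was the member lower in the dark (-0.49 ± 0.15, adjusted p = 0.0489). Its call was kept in 2 of the 12 fits, those without replicate 1 of ZT6 or replicate 2 of ZT18. Over all 12 fits the difference ran from -0.63 to -0.36.

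Glucocorticoid-responsive genes were higher in the dark. Of 12 genes 7 passed the test in that direction (median 0.56), none was lower, and the count was 7 in each of the 12 fits. Tsc22d3 (GILZ), a direct target of the glucocorticoid receptor, read 82.9 and 100.0 CPM at ZT2, 55.9 and 62.2 at ZT6, 86.6 and 61.2 at ZT10, 144 and 169 at ZT14, 176 and 168 at ZT18 and 105 and 129.8 at ZT22. All dark libraries lay above all light ones, by 1.04 ± 0.09 (adjusted p = 0.000263), with a peak at 17.7 ± 0.411 h. Fkbp5, a co-chaperone that dampens the receptor, was highest in both ZT14 libraries (172 and 119 CPM) and lower at ZT2 (41.0 and 41.2 CPM), with a peak at 14.8 ± 0.529 h and a difference of 0.88 ± 0.16 (adjusted p = 0.00637). Dusp1 and the transcription factor gene Cebpb differed by 0.80 ± 0.11 and 0.54 ± 0.09 (adjusted p = 0.00208 and 0.00355). The receptor gene Nr3c1 was not called in either test (184 ± 20.2 CPM in the light and 182 ± 6.19 CPM in the dark, SD, n = 6 libraries each).

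Ribosome biogenesis genes were higher in the dark in part. Of 22 genes 9 were higher (median 0.18) and none lower (1 without replicate 1 of ZT6), and 4 were called without replicate 2 of ZT2. Rrp12, a factor of ribosomal RNA processing, differed by 0.88 ± 0.14 (adjusted p = 0.00311), with 4.63 to 10.7 CPM in the light and 9.61 to 17.0 CPM in the dark.

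Interferon and antigen presentation genes were lower in the dark in part. Of 20 genes 7 were lower (median -0.33), none was higher (1 without replicate 1 of ZT22 or replicate 2 of ZT6), and 9 had a rhythm. The count of lower genes was 12 without replicate 1 of ZT6 and 4 without replicate 1 of ZT14 or replicate 2 of ZT2. Usp18, which limits interferon signalling, read 13.6 and 14.7 CPM at ZT2, 12.2 and 17.99 at ZT6, 19.9 and 16.0 at ZT10, 5.43 and 8.04 at ZT14, 7.87 and 7.58 at ZT18 and 7.34 and 12.0 at ZT22. The lowest light library (12.2 CPM) lay just above the highest dark one (12.0 CPM), and the difference was -0.94 ± 0.14 (adjusted p = 0.00269). Isg15, a ubiquitin-like modifier, differed by -0.91 ± 0.15, with a peak at 3.52 ± 0.638 h (adjusted p = 0.00430 and 0.00437), and Ifi44 by -0.83 ± 0.16 (adjusted p = 0.00862). Beside these, 8 B and plasma cell markers summed to 16.9 to 21.3 CPM in the light and 8.28 to 17.1 CPM in the dark, 10 sinusoidal endothelium markers to 629 to 712 and 574 to 633 CPM, and 10 T and NK cell markers to 4.07 to 5.29 and 3.52 to 6.40 CPM. Their part in the result was not tested.

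**Figure D5:**
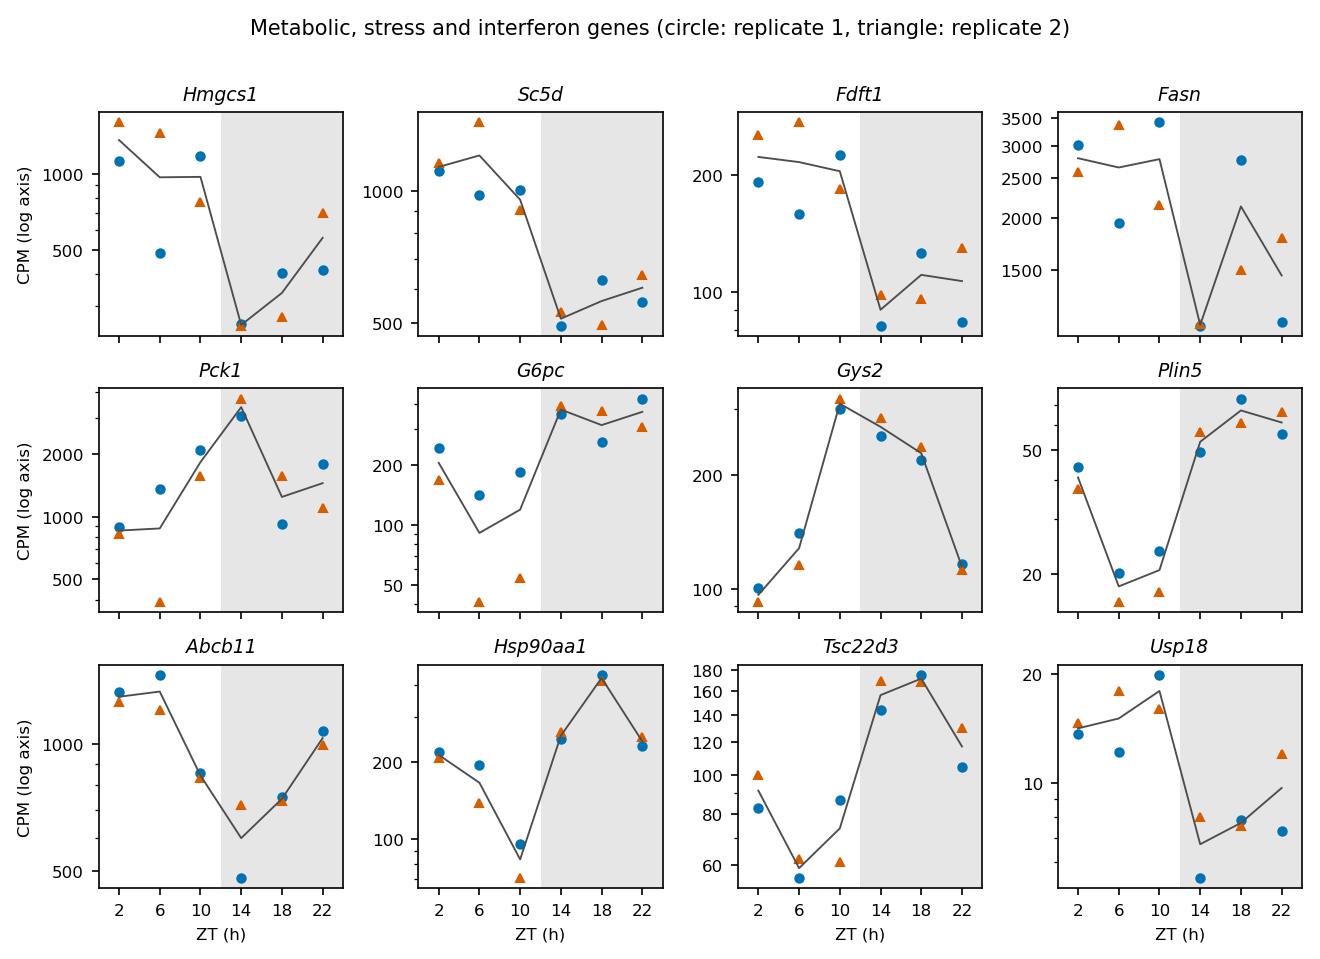
Depth-scaled counts (CPM, log axis) against zeitgeber time for 12 genes of cholesterol, fatty acid, glucose, bile acid, stress and interferon lists, with 1 marker per library, lines through replicate means and the dark phase in grey. Hmgcs1 in replicate 1 of ZT6 lies at 485 CPM beside 1454 CPM in replicate 2, and all dark libraries of G6pc, Plin5, Hsp90aa1 and Tsc22d3 lie above their light libraries.

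Departures from a plain 24 h wave were called in fewer genes. Such a departure can be 2 crests a day, a step or an uneven wave. A 12 h term added to the 24 h wave was called in 311 genes (1.92% of all tested), of which 94 also had a called 24 h rhythm. This count depended on single libraries. It was 1065 without replicate 1 of ZT6, 69 without replicate 2 of ZT2, 84 without replicate 2 of ZT18 and 98 without replicate 1 of ZT2. It was also 112 and 181 without replicate 1 of ZT14 and of ZT18, and 128, 193, 137 and 198 without replicate 2 of ZT6, ZT10, ZT14 and ZT22. Tle1, a corepressor, read 75.6 and 75.7 CPM at ZT2, 44.9 and 49.8 at ZT6, 64.6 and 71.8 at ZT10, 68.9 and 69.8 at ZT14, 36.1 and 34.7 at ZT18 and 56.6 and 61.0 at ZT22. It dipped at ZT6 and again at ZT18, 12 h later, in both libraries of each time, and had the lowest adjusted p for this term (0.00322, amplitude of the 12 h term 0.49). Lgals4, a galectin, and Rbm15b, an RNA-binding protein, dipped at the same times (12 h amplitudes 0.57 and 0.44, adjusted p = 0.00648 and 0.00858). Pde9a, which degrades cyclic GMP, and the polarity gene Llgl2 were low at ZT10 and ZT14. Pde9a read 24.1 and 19.6 CPM at ZT2, 26.1 and 26.5 at ZT6, 6.37 and 7.79 at ZT10, 7.06 and 7.88 at ZT14, 26.3 and 28.1 at ZT18 and 29.6 and 23.3 at ZT22. Its 12 h amplitude was 0.69 (adjusted p = 0.00648), and that of Llgl2 was 0.35 (adjusted p = 0.00830). Pde9a also had a called 24 h rhythm of amplitude 0.96 (adjusted p = 0.0321 by edgeR's quasi-likelihood test), kept in 7 of the 12 fits without 1 library. Whether its course is a step or a wave was not tested. Per3 was called as well (0.90, adjusted p = 0.00676). Per3 rose within 8 h, from ZT2 to ZT10, and fell over the following 12 h.

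The 12 h term was called in 8 of the 17 heat shock and cold-inducible genes, against 1.92% of all genes tested. Hspb1 was not among them (adjusted p = 0.170). Hspa1b, an inducible HSP70 gene whose reads may be shared with its copy Hspa1a, read 18.3 and 11.8 CPM at ZT2, 1.34 and 1.54 at ZT6, 5.17 and 3.39 at ZT10, 19.3 and 30.7 at ZT14, 8.76 and 2.82 at ZT18 and 4.02 and 3.595 at ZT22, with crests at ZT2 and ZT14 and a 12 h amplitude of 1.66 (adjusted p = 0.00858). Dnajb1, its co-chaperone, had a 12 h amplitude of 0.72 (adjusted p = 0.0112). The list's count was 10 without replicate 1 of ZT6, 3 without replicate 1 of ZT2, 4 without replicate 2 of ZT2 or of ZT6, and 5 without either library of ZT14 or replicate 2 of ZT10. Other lists held such calls too. They numbered 4 of 18 core clock genes, 3 of 10 clock output transcription factors and 4 of 25 genes of fatty acid oxidation and PPAR alpha. As each library was left out, these counts ran from 3 to 6, 0 to 4 and 2 to 10.

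Set beside germ-free females, most genes of large amplitude, inside and outside the clock lists, had an earlier fitted peak in the conventional females. No single gene passed the test. The rhythm difference, an interaction of status with the 24 h terms over 24 libraries, was called in 0 of 16574 genes (0%) by edgeR, with 1940 at an unadjusted p under 0.05 and a lowest adjusted p of 0.0547. DESeq2 called 272. Among genes with an amplitude of at least 0.5 in both groups, 388 of 493 (78.7%) peaked earlier in the conventional females, with a median shift of -1.65 h, and of 19 such clock genes 17 did, with a median of -2.03 h. Of all 28 clock genes, with no limit on amplitude, 20 (71.4%) peaked earlier, with a median of -1.83 h. A difference between clock genes and other genes was not tested. These genes share the 24 libraries and are not independent of each other. In 3 germ-free libraries (replicate 2 of ZT2, ZT6 and ZT10) Nnt, a mitochondrial transhydrogenase that differs between C57BL/6 substrains, read 173 to 186 CPM. The remaining 9 read 56.5 to 75.5 CPM, and the conventional females 54.7 to 70.6 CPM. Without those 3 libraries 0 genes were called, and 440 of 606 genes (72.6%, median -1.13 h) and 18 of 19 clock genes (median -1.68 h) peaked earlier in the conventional females. Ak4, a mitochondrial adenylate kinase, had the lowest p, with peaks at 12.5 h in conventional and 16.7 h in germ-free females. Slc25a37, Tmem57, Rbm47, Pcsk4, Npas2, Kif3b and Itsn1 followed (adjusted p = 0.0875 each). Dbp peaked at 10.2 and 12.8 h (adjusted p = 0.180), Per3 at 11.6 and 14.8 h (adjusted p = 0.129), and Npas2 at 0.308 and 1.47 h. Nr1d1 was close in both, at 8.33 and 8.27 h (adjusted p = 0.896).

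Against conventional males most clock genes had a larger fitted amplitude in the females, and again no gene passed. The same 12 conventional female libraries enter this comparison and that with germ-free females. The interaction was called in 0 of 17423 genes (0%) by edgeR, with 903 at an unadjusted p under 0.05 and a lowest adjusted p of 0.0608, and in 37 by DESeq2. The counts of the males come from another table than those of the females, so sex and table cannot be told apart. Of 18 clock genes with an amplitude of at least 0.5 in both sexes, 16 had the larger one in the females, with medians of 1.54 and 0.99, against 311 of 493 genes of the whole table (63.1%, medians 0.78 and 0.72). Npas2 had amplitudes of 4.11 in females and 2.09 in males (adjusted p = 0.385), Dbp 3.51 and 2.19 (adjusted p = 0.917), and Nr1d1 2.80 and 1.902, with peaks at 8.32 and 5.67 h (adjusted p = 0.361). The genes of lowest p were Prom1, a membrane protein of bile duct and progenitor cells, with amplitudes of 1.03 and 0.36, and the nuclear receptor corepressor Nrip1, with 0.56 and 0.05 (adjusted p = 0.0608 and 0.0793), followed by Rnf39, Phospho1, Col5a3, Nr1d1, Ephx1 and Hsd3b3 (adjusted p from 0.361 to 0.380).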

How the data were processed

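Total RNA from mouse liver was sequenced as stranded, ribosome-depleted 100-base paired-end libraries, per the labels' protocols. The authors deposited whole-number read counts per gene, aligned with STAR 2.4.0i to mm10 per the submitters' processing notes; the counting tool is not given in the sources used here. Of 38087 genes, 36308 matched GENCODE M21 for names and positions. The 12 conventional female libraries held 35575672 to 41536942 counts, printed as CPM, the count scaled to the library total.

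Genes passed a filter (filterByExpr, minimum count 10, minimum total 15), leaving 16180, and counts were scaled by TMM. edgeR 4.0.16 (R 4.3.3) tested, by quasi-likelihood with Benjamini-Hochberg adjustment at 0.05, a 24 h cosine and sine, the dark minus the light mean over 6 times, a 12 h term beside the 24 h term, and interactions with germ-free females or conventional males. DESeq2 1.42.0 and limma 3.58.1 were alternatives. On simulated data the rhythm test recovered 94 of 100 changes of amplitude 0.5 and the dark minus light test 87 of 100 differences of 0.5. These changes were placed only in genes with an average log2 CPM of at least 2, on counts drawn at the fitted dispersions. No library was made to deviate, so the recovery does not cover genes of lower level or deviating libraries. Named genes were the 12 called of largest amplitude and 12 of lowest p for rhythm, 10 highest and 10 lowest by phase, the lowest p of the other tests, and list members; pseudogenes and predicted models entered the counts without being named, and some genes are not reported here. Members and lists were chosen with earlier results of these data known. Replicate numbers did not pair the libraries: 2 of 15 correlations between times exceeded 0.1 (-0.14 to 0.20).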

Additional observations from a re-analysis of the deposited data

Results flagged for a closer look

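For the 20 genes named for the difference between dark and light, the 6 libraries of each phase were searched for 1 library far from the other 5. Of 40 such groups 7 held one. The rule flags about 1 group in 20 where all 6 values come from 1 normal distribution. The CPM here span 3 sampling times and genes picked for large differences, so the 7 cannot be read against that rate. Dmbt1 read 98.7 CPM in replicate 2 of ZT22, where the next dark library was at 3.29 CPM, and 0.353 CPM in replicate 2 of ZT10, where the next light library was at 0.131 CPM. Serpina9 read 1.98 CPM in replicate 2 of ZT10, against 0.368 CPM in the next light library. Eif4ebp3 read 20.7 CPM in replicate 1 of ZT10, against 8.63 CPM. Chrna4 and Nfe2 stood apart in replicate 2 of ZT6, at 56.9 CPM against 17.9 CPM and at 9.42 CPM against 5.04 CPM. Hmgcs1 read 702 CPM in replicate 2 of ZT22, against 415 CPM in the next dark library. These values fall inside a phase of 3 sampling times.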

How the results depend on the processing

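Counts of called genes kept within 1.5 times of 3056 (24 h rhythm) and of 2391 (dark minus light) under DESeq2 size factors, library size as the only scaling, no filter on low counts, robust dispersion, DESeq2 and 2 settings chosen after seeing the data (limma with voom, and without both ZT6 libraries). The 24 h rhythm ran from 2148 to 3730 as each library was left out. The dark minus light count ran from 1140 to 3731, with 557 to 1816 higher and 583 to 1915 lower, and was 549 (246 higher, 303 lower) in the 2-group model. The 12 h count of 311 was 202 with library size as the only scaling, 1919 with no filter, 1034 by DESeq2 and 69 to 1065 as each library was left out. With a replicate block the counts were 2637, 2047 and 202. The difference from germ-free females was called in 215 genes with no filter and 272 by DESeq2 (0 to 1 as each library was left out), and that from conventional males in 189, 37 and, with robust dispersion, 1 (0 to 2). For the called genes named in the text, 2339 calls were kept and 301 lost over the fits that left out 1 library, and none changed direction. The causes were not tested. With 2 libraries per time and 1 cycle, depth limits the genes of low level most. Simulated rhythm differences of amplitude 0.5 were recovered in 38 and 49 of 100 genes, all with an average log2 CPM of at least 2.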

Other observations

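Beyond the lists above, the list of NAD and redox genes held 6 rhythmic genes of 14, with 2 higher and 3 lower in the dark, against 18.9%, 7.43% and 7.35% of all genes tested. Nampt, the rate-limiting enzyme of NAD salvage, read 88.7 and 93.2 CPM at ZT2, 109.6 and 92.3 at ZT6, 192 and 192 at ZT10, 229.7 and 224 at ZT14, 158 and 176 at ZT18 and 127 and 124 at ZT22, with a peak at 14.2 ± 0.305 h and an amplitude of 0.69 ± 0.06 (adjusted p = 3.25e-05 by edgeR's quasi-likelihood test). Its ZT10 and ZT14 libraries lay above all others. Nqo1, a quinone reductase, was lower in every dark library than in any light one (-0.48 ± 0.07, adjusted p = 0.00172). Sirt1, an NAD-dependent deacetylase, had a shallow wave of amplitude 0.21 ± 0.04 (adjusted p = 0.00916).

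In the growth hormone list Stat5a and Stat5b peaked at 22.7 ± 0.509 h and 1.75 ± 0.457 h (adjusted p = 0.00101 and 0.000515), and Igfals, a carrier of IGF1, was higher in the dark by 0.54 ± 0.08 (adjusted p = 0.00208). Socs2, a feedback inhibitor of the hormone's receptor, differed by 0.92 ± 0.18, and Cux2, a transcription factor typical of the female liver, by -0.65 ± 0.11 (adjusted p = 0.00825 and 0.00476). Haptoglobin (Hp) lay higher in every dark library, by 0.53 ± 0.09 (adjusted p = 0.00373). Among 16 proliferation genes 3 had a rhythm (5 without replicate 1 of ZT6), a share close to the 18.9% of all genes, and the mitotic inhibitor kinase Wee1 had the largest amplitude of these, 1.47 ± 0.12, with a peak at 12.7 ± 0.299 h (adjusted p = 3.95e-05). The heme enzyme gene Ppox was lower in every dark library, by a log2 difference of -0.39 ± 0.06 (adjusted p = 0.00313), while Alas1, the first enzyme of the pathway, was higher by 1.22 ± 0.22 (adjusted p = 0.00620).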
